A study of Mus musculus with 8 samples.

Results

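The nuclear-encoded subunits of oxidative phosphorylation were examined in whole retinas of WT and rd10 mice. Members were the protein-coding genes whose symbols name subunits of complexes I to V (Ndufa, Ndufb, Ndufc, Ndufs, Ndufv, *Sdha* to *Sdhd*, Uqcr, *Cyc1*, the lettered Cox5 to Cox8 families and Atp5) and that had 10 or more counts in at least 2 libraries. Of 84 genes with such a symbol, 80 passed, and all 80 were among the 20457 genes tested of 57010 identifiers in the table. Complex I gave 35 members, complex II 4, complex III 9, complex IV 15 and complex V 17. The 4 that did not pass were the muscle isoform *Cox6a2*, with at most 13 counts in a library, and *Cox7b2*, *Cox8c* and a second identifier of *Atp5o*, which had no counts in any library. *Ndufa4* and *Ndufa4l2* were placed with complex IV, to which the NDUFA4 protein is now assigned. The symbol rule leaves out *Cox4i1*, *Cox4i2*, *Ndufab1* and cytochrome c (*Cycs*), which are described with the other mitochondrial lists.

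The study examined how microglia are activated during retinal degeneration and what part TREM2 plays in it. Poly(A) RNA from whole retinas, 1 retina per library, was sequenced in 4 groups of 2 libraries. These were wild type retinas at P15 (WT P15; the study used wild type littermates as controls of its rd10 mice) and retinas of mice homozygous for rd10 at P15, P18 and P21 (15, 18 and 21 days after birth). The rd10 allele is a missense mutation of *Pde6b*, the beta subunit of the rod phosphodiesterase, so it is present in all cells of the animal, and rods are lost from about the third postnatal week, before cones. No WT retina of P18 or P21 was among the libraries, so at these ages genotype and age cannot be told apart, and the comparisons of rd10 P18 and P21 with rd10 P15 hold the genotype fixed. The labels do not say whether the libraries of a group came from different animals, so p-values measure the spread between these libraries.

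Oxidative phosphorylation moves electrons from NADH and succinate through complexes I to IV of the inner mitochondrial membrane to oxygen, and complex V uses the resulting proton gradient to make ATP. A few hydrophobic core subunits are encoded by the mitochondrial genome, and all the others are made in the cytosol and imported. Photoreceptors are among the most energy-demanding cells of the body and pack elongated mitochondria into the ellipsoid of the inner segment, next to the outer segment where phototransduction takes place.

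The libraries held 28076947 to 33724562 counts, and the members took 0.667% to 1.08% of them. The tissue label held: the summed level of 12 rod markers was 59270 and 48383 CPM (counts scaled to the TMM-normalised library size) for WT, 35771 and 38236 for rd10 at P15, 31915 and 31069 at P18 and 22538 and 29479 at P21, so that every rd10 library was below both WT libraries. In bulk tissue, fewer cells of a type and less RNA per cell cannot be told apart. *Xist* and Y-linked counts marked both WT P15 libraries as female, both rd10 P15 libraries as male, and the rd10 P18 and P21 libraries as male for replicate 1 and female for replicate 2. At P15, genotype and sex therefore cannot be told apart. Replicate 1 of rd10 P18 stood apart from the other libraries for these genes: 74 of the 80 members were higher in it than in replicate 2, by a median of 0.57 on the log2 scale, and 38 by more than 1.5-fold, against 17.6% of all genes tested. The same difference was 0.62 for 78 cytosolic ribosomal protein genes, 0.39 for 78 mitochondrial ribosomal protein genes and 0.22 for 16 genes of the tricarboxylic acid cycle. Across the 80 members it had a Spearman correlation of -0.37 with exon length, and across all genes with a length -0.34, against values between -0.04 and 0.19 in the other 3 groups, where the median difference of the members was at most 0.06 in size. The part of transcript length in this gap was not tested. Log2 fold changes and medians of rd10 P18 are given beside the value without replicate 1, where the P18 group is a single library and the spread comes from the other groups.

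Summed over the 80 members, expression was 8119 and 7966 CPM for WT, 8558 and 8601 for rd10 at P15, 10182 and 7495 at P18 and 6754 and 6546 at P21. The rd10 P15 libraries lay just above the WT libraries, the rd10 P18 libraries lay on both sides of all the others but P21, and the rd10 P21 libraries were the lowest of all. The rd10 P21 mean was 0.827 times the WT mean and 0.775 times the rd10 P15 mean. Member by member, both rd10 P21 libraries lay below the other 6 libraries for 51 of the 80, as they did for 6.32% of all genes tested. The mean for complex IV at P21 was 0.80 times WT, for complex I 0.795, for complex III 0.83, for complex V 0.85 and for complex II 0.875.

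**Figure D1:**
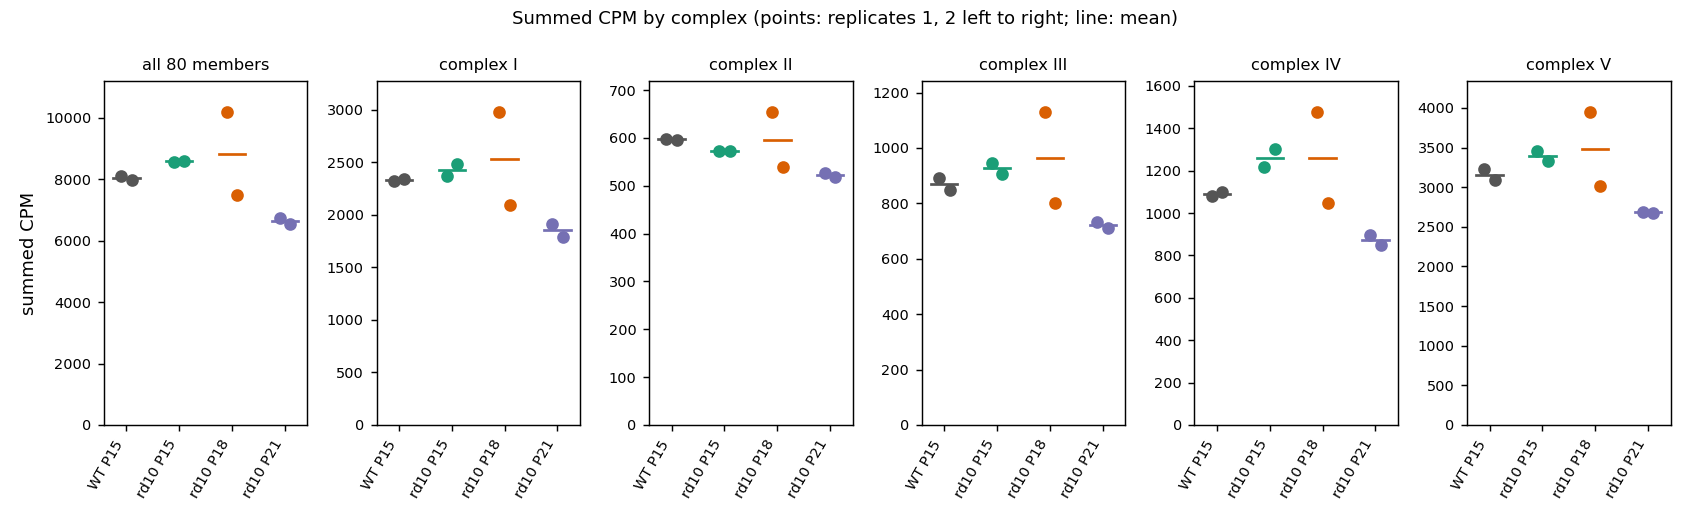
Summed CPM (y axis from 0) of all 80 members and of each complex in the 8 libraries, with replicates 1 and 2 as points from left to right and the group mean as a line. For all members the rd10 P21 libraries, at 6754 and 6546 CPM, are the lowest, and the rd10 P18 libraries, at 10182 and 7495 CPM, are the farthest apart.

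Per member, these differences were small. Expression was compared by edgeR's quasi-likelihood test with Benjamini-Hochberg adjustment over all 20457 genes, and a gene was called at an adjusted p under 0.05 with an absolute log2 fold change over 1. Among the 5 comparisons, 1 member was called once, *Ndufa4l2* in rd10 P18 against WT P15 (higher), where 1.48% of all genes tested were called. No member was called by edgeR in rd10 P15 against WT P15 (0.23% of all genes called), in rd10 P21 against WT P15 (0.386%), in rd10 P18 against rd10 P15 (0.591%) or in rd10 P21 against rd10 P15 (0.401%). At an unadjusted p under 0.05 these 4 comparisons gave 3, 12, 1 and 22 members (12.3%, 11.8%, 12.9% and 12.8% of all genes). In the same order DESeq2 called 2 (*Ndufa4l2* and *Cox7a2l*), 1 (*Ndufa12*), 0 and 0 members. Over all genes DESeq2 called 1.46%, 1.94%, 2.05% and 1.8%. By adjusted p alone, 0.24%, 1.89%, 0.425%, 0.616% and 0.43% of all genes passed in the order rd10 P15, P18 and P21 against WT P15 and rd10 P18 and P21 against rd10 P15, and by edgeR no member other than *Ndufa4l2* did. DESeq2 placed *Atp5mpl*, *Cox6c*, *Cox7a2l* and *Ndufb11* under an adjusted p of 0.05 in rd10 P21 against rd10 P15, within the fold of the call. Over all genes 2.47% were under it there by DESeq2. The comparisons with WT P15 share its libraries, and those with rd10 P15 share theirs.

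In rd10 P15 retinas, 58 of the 80 members had a log2 fold change against WT P15 above 0, with a median of 0.11 against -0.01 for all genes tested. Both rd10 libraries lay above both WT libraries for 37 members (24.8% of all genes) and below both for 7 (24.9%), and the remaining 36 overlapped. Only 3 members, 2 higher and 1 lower, had an unadjusted p under 0.05, a share below the 12.3% of all genes. With a term for sex in the model, fitted through the rd10 P18 and P21 libraries of both sexes, the median turned to -0.22 with 66 of 80 members below 0. This term carries the gap between the libraries of rd10 P18, where the male one is the replicate 1 that stood apart. When that library was left out as well, so that the term came from the rd10 P21 pair, the median was 0.037 with 39 members below 0, an alternative chosen after seeing the data.

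In rd10 P18 retinas the median against WT P15 was 0.19 (all genes 0.01) with 61 members above 0. Both libraries lay above both WT libraries for only 13 members (24.1% of all genes) and below both for 7 (22.9%), and 7 members, all higher, had an unadjusted p under 0.05 (17.4% of all genes). The median was -0.13 without replicate 1, with 57 members below 0, and 0.44 without replicate 2. In the latter fit the P18 group is replicate 1 alone, 34 members passed the adjusted p, as did 13.8% of all genes, and *Ndufa1* and *Ndufa4l2* were called, with 5.7% of all genes. Replicate 2 on its own was below both WT libraries for 49 members (36.4% of all genes). With a term for sex the median was 0.0021, with 39 members below 0. Against rd10 P15 the median was 0.11 (all genes 0.01), with both P18 libraries above both P15 libraries for 3 members (21.9% of all genes) and below both for 6 (20.4%). Only *Cox6c* (lower) had an unadjusted p under 0.05, where 12.9% of all genes did. Without replicate 1 this median turned to -0.20 with 76 of 80 below 0, and without replicate 2 it was 0.33. The direction of the members at P18 was thus set by which of its 2 libraries was used.

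In rd10 P21 retinas 74 of the 80 members had a log2 fold change against WT P15 below 0, with a median of -0.29 (all genes 0.00) and a range of -1.06 to 1.20. The median was -0.18 with scaling by library size alone, where all genes were at 0.11, and -0.45 with a term for sex (-0.33 when replicate 1 of rd10 P18 was also left out). Summed markers of other cells differed as well: the rd10 P21 mean was 3.93 times WT for 10 microglia markers, 3.69 times for 8 markers of reactive Muller glia, 1.26 times for 7 Muller glia markers and 0.483 times for the 12 rod markers, and no gene of these lists was at 0 in all libraries. Set against rd10 P15, the rd10 P21 mean was 0.142 times for 8 pigment epithelium markers, 0.597 times for 8 pericyte and smooth muscle markers and 0.703 times for rods. It was 1.70 times for 8 cone markers, 1.33 times for Muller glia, 2.97 times for microglia and 5.24 times for reactive Muller glia. Pigment epithelium markers also differed within WT P15, at 42.6 and 157 CPM. The part of cell composition in the members' values was not tested. Both P21 libraries lay below both WT libraries for 63 members (24.2% of all genes) and above both for 3 (24.9%), which were *Ndufa4l2*, *Cox6b2* and *Ndufs4*. An unadjusted p under 0.05 was reached by 12 members, 11 lower and 1 higher, against 11.8% of all genes. Against rd10 P15, where genotype was the same, the median was -0.42 (all genes 0.01) with 76 of 80 below 0. Both P21 libraries lay below both rd10 P15 libraries for 69 members (25.5% of all genes) and above both for 1, *Cox7a1* (26%). Of the 80, 22 members, all lower, had an unadjusted p under 0.05 (12.8% of all genes). Both rd10 P15 libraries were male, and a term for sex brought the median against rd10 P15 to -0.25 with 72 members below 0. In that fit 11 members had an unadjusted p under 0.05 (11.7% of all genes). The median was -0.37 when replicate 1 of rd10 P18 was also left out. Against WT P15, the term for sex in all 8 libraries gave 43 members with an unadjusted p under 0.05 (12% of all genes). Fits of only the 4 libraries compared gave 40 such members against WT P15 (17.4% of all genes) and 54 against rd10 P15 (19.9%). In the latter fit 6 members, all lower, passed an adjusted p of 0.05 by edgeR, with 1.92% of all genes. Against rd10 P18, 77 members were below 0 (50.1% of all genes) with a median of -0.47 (all genes 0.00), and both P21 libraries lay below both P18 libraries for 62 (22% of all genes). Without replicate 1 of rd10 P18, 70 were below 0 (48.7% of all genes) and the median was -0.15.

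The adjusted p-values at P21 depended on the rd10 P18 pair, whose spread enters the shared fit. Leaving out replicate 1 of rd10 P18 left the median against WT P15 at -0.29, but brought 6 members under an adjusted p of 0.05 (*Cox6c*, *Cox7b*, *Ndufa12*, *Ndufa4* and *Ndufb3* among them), with *Ndufa12* called. Over all genes the share under that adjusted p went from 0.425% to 2.22% in the same fit, and the share called from 0.386% to 0.959%. Against rd10 P15 14 members then passed the adjusted p, all lower and none past the fold of the call, with 2.86% of all genes. Leaving out replicate 2 of rd10 P18 in its place left the medians at -0.29 against WT P15 and -0.42 against rd10 P15. More members, and a larger share of all genes, were again under that adjusted p than in the main fit.

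**Figure D2:**
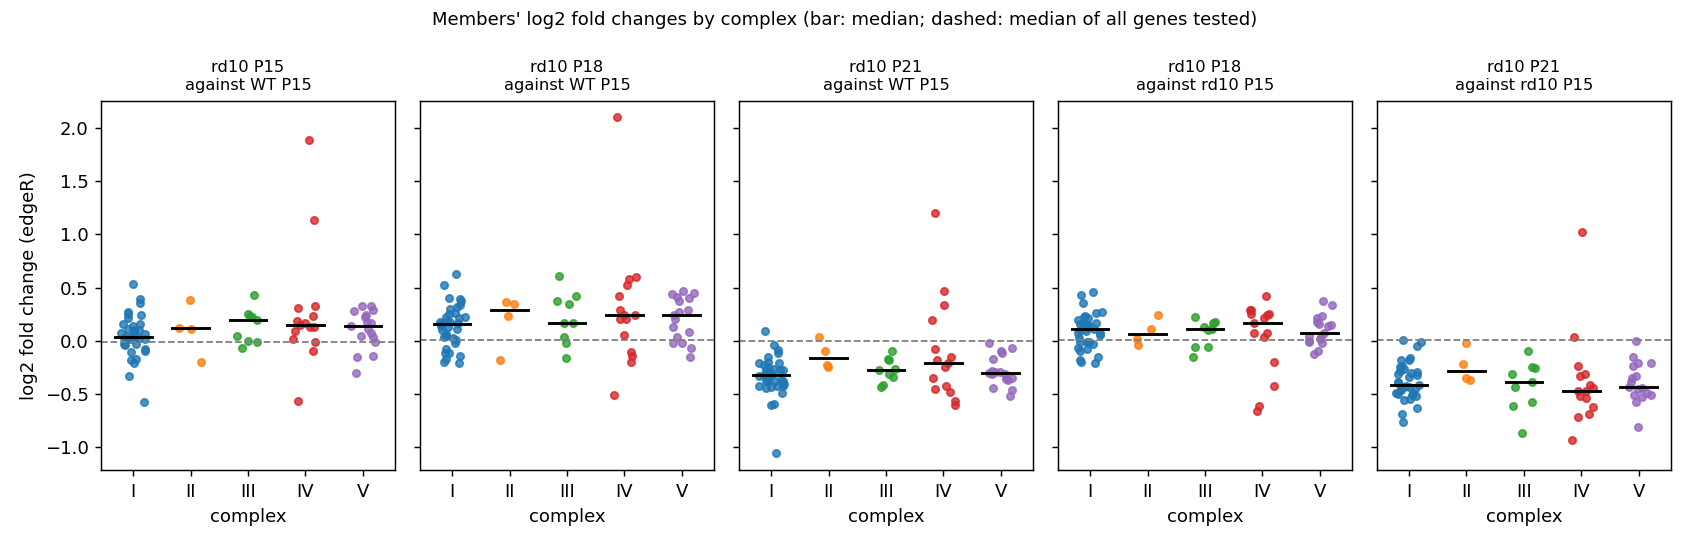
Log2 fold changes (y axis) of the 80 members in the 5 comparisons, split by complex on the x axis, with a bar at the median of each complex and a dashed line at the median of all genes tested. At P21 the points lie mostly below the dashed line in every complex, with medians between -0.16 (complex II) and -0.32 (complex I) against WT P15, and *Ndufa4l2* is the highest point in each comparison with WT P15.

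**Figure D3:**
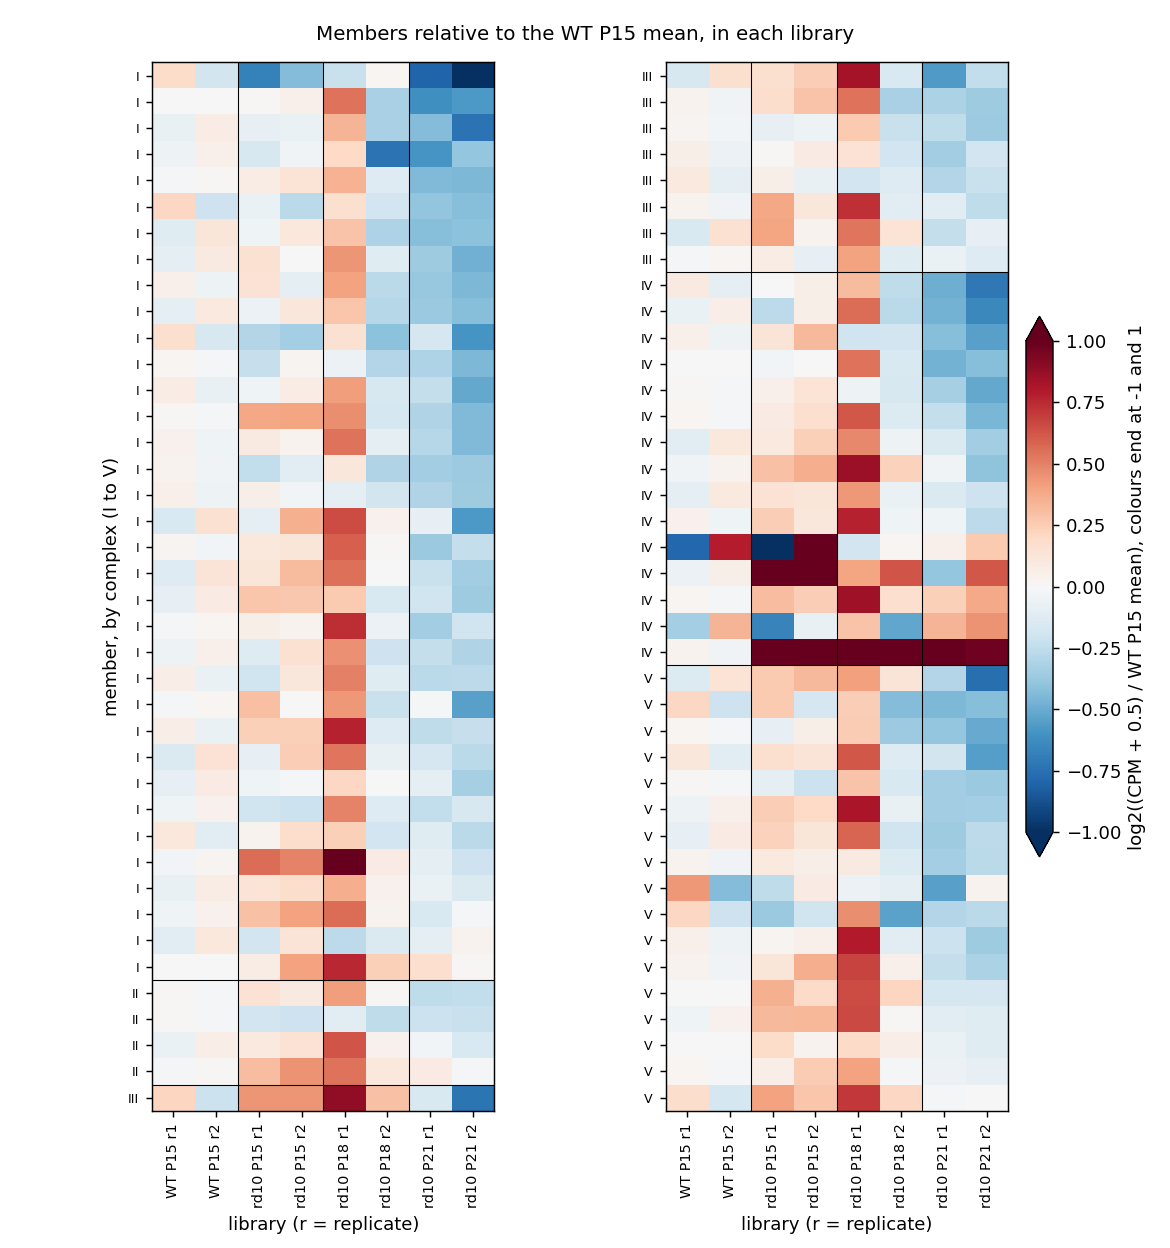
Each member (rows, grouped by complex and ordered within it by the log2 fold change of rd10 P21 against WT P15) in each library (columns) as the log2 ratio of CPM + 0.5 to the WT P15 mean, coloured from blue (lower) to red (higher) and saturated at -1 and 1. The rd10 P18 replicate 1 column, where 63 of 80 members are at their highest, is red, and both rd10 P21 columns are mostly blue.

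Promoters of members are shown because most members lay on the same side of 0 at P21 and because factors that recognise short promoter motifs are known to act on many of these genes. RefSeq (GRCm38.p6) windows from 250 bases before to 50 after a start gave 72 windows for 67 of the 80 members. Motifs were searched on both strands: GCGCATGC, the core bound by NRF1, the letters CCGGAAG of the ETS family to which GABPA belongs, AAGATGGCG of YY1, TCAAGGTCA of the estrogen-related receptors, and CCAAT of NF-Y. None of these letter strings contains another. The windows below have the matches in capitals, and where matches of both strands overlap the capitals run on.
*Ndufa11*, chr17:56717512-56717811, plus strand: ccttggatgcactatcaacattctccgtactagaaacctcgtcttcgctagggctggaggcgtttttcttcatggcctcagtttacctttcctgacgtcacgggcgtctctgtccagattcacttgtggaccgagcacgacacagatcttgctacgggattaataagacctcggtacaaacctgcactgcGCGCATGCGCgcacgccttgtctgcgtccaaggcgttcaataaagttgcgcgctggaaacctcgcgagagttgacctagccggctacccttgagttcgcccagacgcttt
*Ndufs6*, chr13:73328433-73328732, minus strand: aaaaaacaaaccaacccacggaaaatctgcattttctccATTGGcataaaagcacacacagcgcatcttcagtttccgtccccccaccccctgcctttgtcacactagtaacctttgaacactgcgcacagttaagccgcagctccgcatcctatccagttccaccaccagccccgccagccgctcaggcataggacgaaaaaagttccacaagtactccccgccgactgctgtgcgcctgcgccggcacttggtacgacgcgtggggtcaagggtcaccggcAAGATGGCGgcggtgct
*Ndufb11*, chrX:20617570-20617869, minus strand: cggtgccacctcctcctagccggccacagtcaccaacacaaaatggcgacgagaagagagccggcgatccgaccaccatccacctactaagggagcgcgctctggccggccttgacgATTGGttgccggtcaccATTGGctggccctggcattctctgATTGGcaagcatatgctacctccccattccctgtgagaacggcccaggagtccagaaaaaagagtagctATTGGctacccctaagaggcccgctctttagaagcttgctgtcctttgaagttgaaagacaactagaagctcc
*Sdhd*, chr9:50603800-50604099, minus strand: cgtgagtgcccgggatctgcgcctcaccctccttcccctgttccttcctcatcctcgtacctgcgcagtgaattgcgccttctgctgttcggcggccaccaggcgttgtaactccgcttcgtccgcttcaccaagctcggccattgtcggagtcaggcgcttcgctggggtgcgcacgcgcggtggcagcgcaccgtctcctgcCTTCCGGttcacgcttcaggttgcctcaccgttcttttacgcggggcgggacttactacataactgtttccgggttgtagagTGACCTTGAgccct
*Ndufa12*, chr10:94198785-94199084, plus strand: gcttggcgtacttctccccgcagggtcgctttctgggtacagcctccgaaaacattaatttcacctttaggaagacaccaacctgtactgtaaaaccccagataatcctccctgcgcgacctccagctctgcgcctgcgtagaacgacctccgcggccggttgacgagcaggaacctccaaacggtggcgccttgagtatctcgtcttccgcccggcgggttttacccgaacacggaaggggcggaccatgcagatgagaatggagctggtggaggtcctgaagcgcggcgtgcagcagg
*Ndufa11* holds the NRF1 core on both strands in a run that reads the same either way. *Ndufs6* holds a YY1 match just after the start and a CCAAT match on the strand opposite to the printed one. *Ndufb11* holds CCAAT matches only on the strand opposite to the printed one. *Sdhd* holds an ETS match and an estrogen-related receptor match, and *Ndufa12* none of the 5 motifs. Over the members' windows, GCGCATGC was found in 13.9% (4.43% of windows of genes tested, 2.71% of all windows), CCGGAAG in 22.2% (14.7% and 8.86%), AAGATGGCG in 9.72% (2.39% and 1.4%), TCAAGGTCA in 2.78% (0.277% and 0.423%) and CCAAT in 41.7% (37.3% and 37.4%). In 23 members with a window none of the 5 strings was present. At P21 against WT P15 *Ndufa11* was at -0.04, *Ndufs6* at -0.59, *Ndufb11* at -0.37, *Sdhd* at 0.04 and *Ndufa12* at -1.06. A match is only a match of letters, and any link between these motifs and the fold changes was not tested.

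Complex I takes electrons from NADH and is the largest complex of the chain. At P21 34 of its 35 members were below 0 against WT P15 and both libraries were below both WT libraries for 29 (24.2% of all genes), with a median of -0.32. The 7 core subunits that carry the flavin and the iron-sulfur clusters had a median of -0.33, and the 28 accessory subunits had a median of -0.31.

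*Ndufa12*, an accessory subunit at the junction of the matrix arm, had the lowest value of any member at P21. It was at 41.8 and 32.5 CPM for WT, 22.8 and 27.2 for rd10 at P15, 31.5 and 37.3 at P18 and 20.955 and 14.7 at P21. The rd10 P15 and P21 libraries lay below both WT libraries, while the rd10 P18 libraries overlapped WT. The log2 fold change against WT P15 was -0.57 ± 0.23 at P15 (± SE, n = 2 libraries per group, adjusted p = 0.358 by edgeR), -0.11 ± 0.23 at P18 (0.855; 0.0057 without replicate 1) and -1.06 ± 0.23 at P21 (0.109; 0.00477 by DESeq2). Its paralog *Ndufaf2*, the assembly factor that NDUFA12 replaces in the finished complex, was at -0.92 ± 0.24 at P21 (adjusted p = 0.161), the largest size in the list of assembly factors. *Ndufb3* and *Ndufs6*, of the membrane and matrix arms, followed with -0.60 ± 0.25 (adjusted p = 0.395 by edgeR) and -0.59 ± 0.23 (0.370).

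The X-linked *Ndufb11* had the highest level per length in complex I, with a mean of 134 RPKM (CPM per kilobase of exon) over the 8 libraries, before *Ndufa2* with 101. *Ndufb11* was at 116 and 115 CPM for WT, 151 and 152 for rd10 at P15, 159 and 102 at P18 and 93.6 and 84.6 at P21. Its log2 fold change between rd10 P21 and rd10 P15 was -0.77 ± 0.20 (adjusted p = 0.172 by edgeR), and DESeq2 placed it under an adjusted p of 0.05. *Ndufa1*, also X-linked, was at 32.2 and 33.3 CPM for WT, 48.4 and 46.3 for rd10 at P15, 66.7 and 34.7 at P18 and 30.6 and 28.2 at P21. Its rd10 P15 libraries were clear of WT, at 0.53 ± 0.27 (adjusted p = 0.472). For both genes replicate 1, the male library, was above replicate 2 within rd10 P18 and within rd10 P21, as for 74 and 52 of the 80 members. With a term for sex *Ndufa1* was at 0.00 at P15, and at 0.42 when replicate 1 of rd10 P18 was also left out.

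Other members of complex I differed less. *Ndufs4*, a matrix arm subunit whose loss in mice causes a Leigh-like disease, was the only member of complex I above 0 against WT P15 at P21, at 0.09 ± 0.20 (adjusted p = 0.935 by edgeR), and was at 0.53 ± 0.20 at P18 (0.238; 0.24 without replicate 1). *Ndufb10* and *Ndufs7* were among the lowest at P15, with -0.33 ± 0.22 (adjusted p = 0.619) and -0.21 ± 0.20 (0.740). *Ndufa11* and *Ndufa5* were among the lowest at P18, with -0.21 ± 0.18 (0.592; -0.15 without replicate 1) and -0.20 ± 0.27 (0.766; -0.75 without replicate 1). *Ndufa5* alone of these crossed 0 when replicate 2 of rd10 P18 was left out.

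Complex II, succinate dehydrogenase, is also an enzyme of the tricarboxylic acid cycle and has no subunit encoded in the mitochondrial genome. Its flavoprotein *Sdha* had the highest level per length of the complex (86.9 RPKM), followed by *Sdhd* (40.9). *Sdha* was at 401 and 393 CPM for WT, 348 and 344 for rd10 at P15, 369 and 333 at P18 and 341 and 339.9 at P21. All 6 rd10 libraries lay below both WT libraries. The log2 fold change against WT P15 was -0.20 ± 0.12 at P15 (adjusted p = 0.567 by edgeR), -0.18 ± 0.12 at P18 (0.495; -0.25 without replicate 1) and -0.22 ± 0.12 at P21 (0.537). Against rd10 P15 *Sdha* was at -0.02 ± 0.12 at P21 (0.965), in a list whose median was -0.42. *Sdhd*, a membrane anchor, had values of 43.5 and 44.1 CPM for WT, 54.4 and 59.9 for rd10 at P15, 64.2 and 47.2 at P18 and 46.3 and 43.6 at P21, with no overlap between WT and rd10 P15 and none between WT and rd10 P18.

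Complex III passes electrons from ubiquinol to cytochrome c. All 9 members were below 0 at P21 against WT P15 and against rd10 P15, with medians of -0.27 and -0.39. *Uqcr10* and *Uqcrh* had the highest levels per length, at 88.9 and 77.4 RPKM. *Uqcrq*, a small subunit that binds ubiquinone, was at 82.5 and 60.8 CPM for WT, 96.5 and 96.5 for rd10 at P15, 131 and 86.9 at P18 and 63.6 and 42.5 at P21. The WT libraries differed about as much from each other as WT differed from rd10 P21, whose values overlapped WT. Between rd10 P21 and rd10 P15 *Uqcrq* was at -0.86 ± 0.26 (adjusted p = 0.218 by edgeR), with both P21 libraries below both P15 libraries. Against WT P15 it was at 0.43 ± 0.26 at P15 (0.553) and 0.61 ± 0.26 at P18 (0.273; 0.28 without replicate 1). The Rieske protein *Uqcrfs1* was closest to its WT level of the complex at P21, at -0.10 ± 0.18 (0.915).

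Complex IV, cytochrome c oxidase, reduces oxygen, and several of its nuclear subunits exist as isoforms. *Ndufa4l2*, a paralog of *Ndufa4* that is known as a target of hypoxia-inducible factors and as a gene of pericytes, was the called member (identifier ENSMUSG00000040280, chr10:127514967-127517154, plus strand, GRCm38). It was at 1.59 and 1.49 CPM for WT, 6.11 and 5.29 for rd10 at P15, 7.79 and 5.42 at P18 and 3.597 and 3.496 at P21, from 43 to 261 counts per library. Every rd10 library was above both WT libraries, and the P21 libraries were below those of P15 and P18. The log2 fold change against WT P15 was 1.89 ± 0.34 at P15 (adjusted p = 0.0634 by edgeR; 0.000998 by DESeq2), 2.10 ± 0.34 at P18 (0.0291; 1.81 without replicate 1) and 1.20 ± 0.33 at P21 (0.186). The call at P18 was lost in 5 of the 8 fits that left out a library, with adjusted p of 0.0572 to 0.189, and with a term for sex (0.0635), while the log2 fold change stayed between 1.81 and 2.16 in all of these. Its exons share 32 bases with Shmt2 on the opposite strand in the annotation, and the library protocol does not mark strand.

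Pericyte markers were also higher in the rd10 P15 libraries, and other lists differed there too. The 8 pigment epithelium markers summed to 222 and 260 CPM in rd10 P15, against 42.6 and 157 in WT P15. The 5 red blood cell markers summed to 67.1 and 84.6 CPM, against 188 and 177. The 8 pericyte and smooth muscle markers, all detected, summed to 129 and 127 CPM for WT, 246 and 265 for rd10 at P15, 159.6 and 161 at P18 and 151 and 154 at P21, and 1 of them, *Rgs5*, was called higher in rd10 P15 (1.02 ± 0.13, adjusted p = 0.0310 by edgeR). These markers were highest in rd10 P15. *Ndufa4l2* was at 6.11 and 5.29 CPM in rd10 P15 and at 7.79 and 5.42 in rd10 P18, with overlap between them. The value of 7.79 came from replicate 1 of rd10 P18, the library that stood apart for the members. The part of pericyte number in the *Ndufa4l2* values was not tested. *Cox4i2*, a subunit outside the symbol rule, was at 19.1 and 19.0 CPM in WT P15 and between 20.4 and 31.8 in the rd10 libraries, none of which overlapped WT. Its adjusted p against WT P15 by edgeR was 0.556 at P15, 0.162 at P18 and over 0.41 at P21.

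*Ndufa4* itself was at 149 and 131 CPM for WT, 139 and 145 for rd10 at P15, 173 and 117 at P18 and 99.3 and 84.8 at P21, so both P21 libraries were clear of all others, at -0.60 ± 0.19 against WT P15 (adjusted p = 0.264 by edgeR). Per length *Ndufa4* stayed far above its paralog. Of the sum of both RPKM values, *Ndufa4l2* made up 1.33% and 1.42% for WT, 5.26% and 4.40% for rd10 at P15, 5.36% and 5.53% at P18 and 4.37% and 4.94% at P21. The share was thus higher in all 6 rd10 libraries than in either WT library, and at P21 it was close to that at P15 although both genes were lower.

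*Cox7a2l* encodes a COX7A-related protein known for joining complexes III and IV into supercomplexes, a role that was not examined in these mice. It was at 61.4 and 66.5 CPM for WT, 135 and 145 for rd10 at P15, 84.2 and 99.3 at P18 and 48.7 and 98.3 at P21. The P15 and P18 rd10 libraries were clear of WT, and the P21 libraries lay on both sides of it. The log2 fold change against WT P15 was 1.13 ± 0.29 at P15 (adjusted p = 0.160 by edgeR; 0.00697 by DESeq2), 0.52 ± 0.28 at P18 (0.398; 0.63 without replicate 1) and 0.20 ± 0.28 at P21 (0.877; -0.39 without replicate 2). Between rd10 P21 and rd10 P15 it was at -0.93 ± 0.29 (0.233), and with a term for sex it was called there (0.0465). Without replicate 2 of rd10 P21, the higher of that pair, it was also called (0.0255), in a fit where the P21 group is 1 library and the spread comes from the other groups.

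The other COX7A isoforms did not share these values. *Cox7a2*, the isoform of most tissues, was at 76.0 and 74.5 CPM for WT, 77.8 and 82.7 for rd10 at P15, 72.5 and 67.2 at P18 and 59.6 and 52.6 at P21. Its group order left WT and rd10 P15 close together and rd10 P21 clear below, at -0.42 ± 0.13 against WT P15 (adjusted p = 0.233 by edgeR) and -0.51 ± 0.13 against rd10 P15 (0.164). The heart and skeletal muscle isoform *Cox7a1* had 19 to 60 counts per library, or 0.605 to 1.89 CPM. It was at 0.46 ± 0.67 against WT P15 at P21 (0.878).

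**Figure D4:**
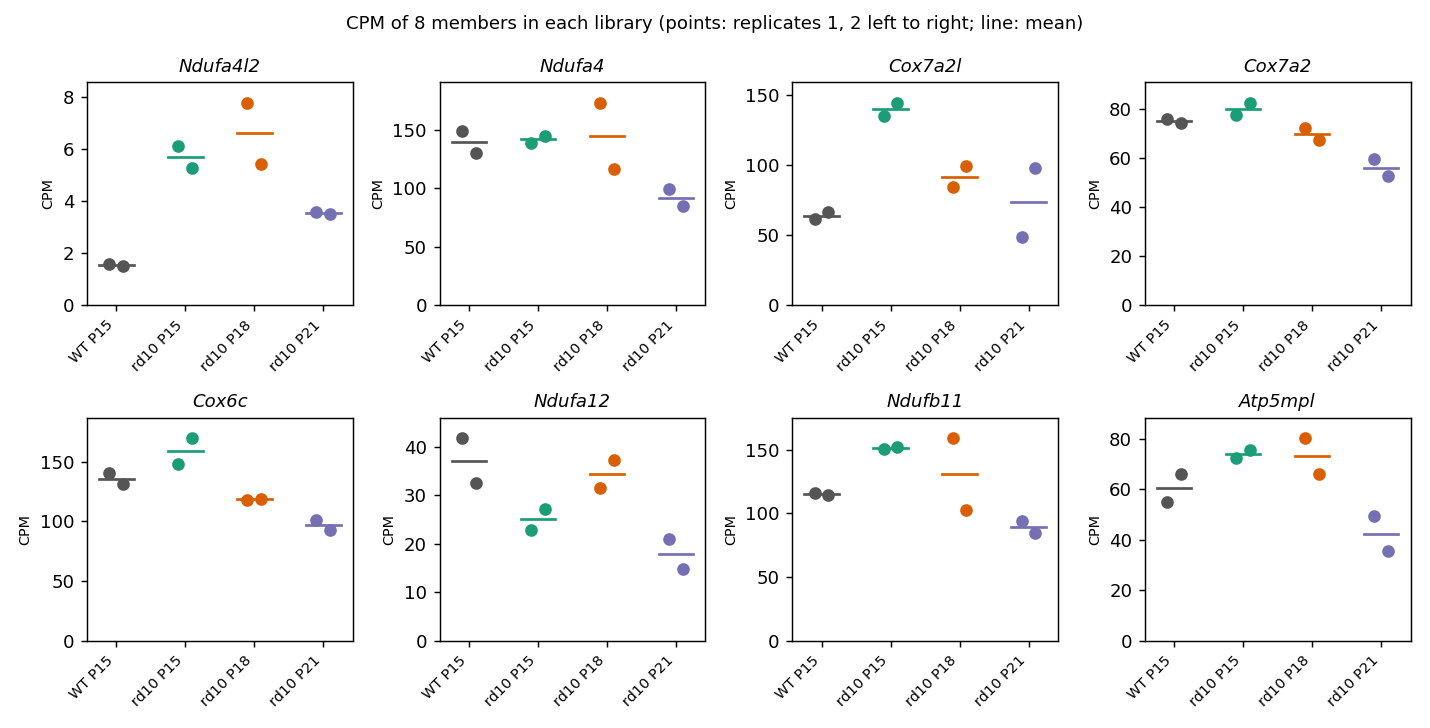
CPM (y axis from 0) of 8 members in each library, with replicates 1 and 2 as points from left to right and the group mean as a line. *Ndufa4l2* lies at 1.59 CPM or less in WT P15 and at 3.496 or more in every rd10 library, *Cox7a2l* peaks in rd10 P15, and *Cox6c*, *Cox7a2*, *Ndufa4*, *Ndufb11* and *Atp5mpl* are lowest in rd10 P21.

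*Cox6c*, a subunit on the outer face of the complex, had the smallest p of any member against rd10 P15, and is described for that reason, chosen after its values were seen. It was at 140.2 and 131 CPM for WT, 148 and 169.7 for rd10 at P15, 118 and 118.5 at P18 and 101 and 93.0 at P21. The groups were in the order rd10 P15, WT P15, rd10 P18, rd10 P21 with no overlap between neighbours. Its rd10 P18 libraries were alike, unlike those of most members. The log2 fold change was -0.48 ± 0.13 for P21 against WT P15 (adjusted p = 0.171 by edgeR), -0.43 ± 0.13 for rd10 P18 against rd10 P15 (0.225; -0.42 without replicate 1) and -0.71 ± 0.13 for rd10 P21 against rd10 P15 (0.0694).

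Among the other isoforms of complex IV, the broadly expressed form was the one detected at a high level. *Cox8a*, with 261 RPKM, had the highest level per length of all 80 members, and its muscle isoform *Cox8b* had 2.06. *Cox8b* was at 0 to 50 counts and its libraries of 1 group differed by up to the full range, so no direction was read from it. *Cox6a1* was at 157 RPKM. *Cox6b1* was at 124 RPKM and its testis isoform *Cox6b2* at 5.02. *Cox6b2* was among the highest members at P21, with 4.51 and 4.37 CPM in WT P15 and 5.34 and 5.91 in rd10 P21, at 0.34 ± 0.32 (adjusted p = 0.768 by edgeR), and was at 0.60 ± 0.32 at P18 (0.388; 0.18 without replicate 1). *Cox6a1*, *Cox6b1*, *Cox8a* and the X-linked *Cox7b* were at -0.34 ± 0.23, -0.56 ± 0.25, -0.25 ± 0.19 and -0.45 ± 0.21 at P21 against WT P15, with adjusted p of 0.437 or more. The 11 skeletal and heart muscle markers summed to 3.95 to 8.65 CPM in all libraries, and 2 of them had no counts.

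Complex V, the ATP synthase, consists of the catalytic F1 head and the membrane rotor and stalks. All 17 members were below 0 at P21 against WT P15, with a median of -0.30, and for 15 both P21 libraries were below both WT libraries (24.2% of all genes). The 5 F1 members had a median of -0.30 and the other 12 of -0.31. The catalytic subunit *Atp5b* had the highest level of the complex, 256 RPKM, with *Atp5a1* at 217. *Atp5b* was at 1154 and 1101 CPM for WT, 1203 and 1173 for rd10 at P15, 1199.6 and 1027 at P18 and 889 and 934 at P21. Both P21 libraries were below all others, at -0.31 ± 0.13 against WT P15 (adjusted p = 0.417 by edgeR), while *Atp5a1* was at -0.09 ± 0.13 (0.867). *Atp5d*, the delta subunit of F1, was among the lowest members at P15, at -0.30 ± 0.30 (0.761), with WT libraries at 149 and 112 CPM.

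The 3 genes *Atp5g1*, *Atp5g2* and *Atp5g3* encode the same mature rotor subunit c. Per length they were at 14.3, 48.2 and 85.5 RPKM over the 8 libraries, in that order in each of the 4 groups. At P21 they were at -0.45 ± 0.20, -0.17 ± 0.16 and -0.11 ± 0.20 against WT P15, with adjusted p of 0.428 or more by edgeR. *Atp5g2* and *Atp5g3* were above WT in both rd10 P15 libraries, at 0.28 ± 0.16 (adjusted p = 0.541) and 0.33 ± 0.20 (0.552), and *Atp5g1* was at -0.01 ± 0.20. *Atp5mpl*, a small membrane subunit named after its values were seen, was at 54.9 and 66.2 CPM for WT, 72.5 and 75.7 for rd10 at P15, 80.3 and 66.0 at P18 and 49.2 and 35.6 at P21. Its log2 fold change between rd10 P21 and rd10 P15 was -0.81 ± 0.19 (0.146; DESeq2 placed it under 0.05). *Atp5l*, subunit g, was at -0.31 ± 0.23 at P21. *Atp5s*, the coupling factor B that is not a subunit of the finished enzyme, was the lowest of the complex per length, with 4.85 RPKM.

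The subunits encoded by the mitochondrial genome, partners of these members in complexes I, III, IV and V, are given for comparison. All 13 protein genes of the mitochondrial genome were lower in both rd10 P15 libraries than in both WT libraries (24.9% of all genes). Their median was -0.27, where the nuclear members had 0.11. At P21 all 13 were again lower in both libraries (24.2% of all genes), with a median of -0.48. Of these, 12 had an unadjusted p under 0.05 (11.8% of all genes). In rd10 P21 against rd10 P15 their median was -0.23 against -0.42 for the members. The summed mitochondrial-genome level was 39308 and 38297 CPM for WT, 31360 and 32192 for rd10 at P15, 31338 and 28712 at P18 and 28369 and 29035 at P21. The ATP synthase gene *mt-Atp6* was called lower than WT P15 by edgeR at P15 (-2.59 ± 0.15, adjusted p = 0.000658) and P18 (-2.56 ± 0.15, 0.000477; -2.71 without replicate 1), and higher in rd10 P21 than in rd10 P15 (2.07 ± 0.14, 0.00236). Over all genes 0.23%, 1.48% and 0.401% were called in these comparisons. *mt-Atp8*, which overlaps *mt-Atp6*, was at -0.25, -0.55 (-0.44 without replicate 1) and -0.24 in them. Largest in size at P21 against WT P15 were *mt-Nd6* (-0.82 ± 0.28, 0.298) and *mt-Nd3* (-0.63 ± 0.18, 0.205).

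Other genes that serve the same pathway are given by their lists, which overlap with no member. At P21 against WT P15 the median log2 fold change was -0.15 for 48 assembly factors, with 36 below 0 (49.7% of all genes) and 21 below both WT libraries in both libraries (24.2% of all genes). It was -0.15 for 78 mitochondrial ribosomal protein genes (57 below 0), -0.07 for 16 genes of the tricarboxylic acid cycle (11), -0.18 for 9 carriers and pore proteins (7) and -0.11 for 20 regulators of mitochondrial biogenesis (13). None of these genes was called in that comparison by edgeR, and at an unadjusted p under 0.05 the lists had 5, 6, 0, 1 and 4 genes, all lower, where 11.8% of all genes passed. The largest sizes were *Ndufaf2* and *Ndufaf4* (-0.89 ± 0.53, adjusted p = 0.594) among assembly factors, *Mrpl53* (0.72 ± 0.61, 0.726) and *Mrpl21* (-0.63 ± 0.27, 0.420) among ribosomal proteins, *Suclg2* (0.91 ± 0.45, 0.491) and *Sucla2* (-0.30 ± 0.16, 0.541) in the cycle, and *Slc25a5* (-0.46 ± 0.16, 0.294) and *Ckmt1* (-0.23 ± 0.16, 0.669) among carriers. Of the 4 subunits outside the symbol rule, *Cycs* was at -0.46 ± 0.20 (0.414) and *Ndufab1* at -0.16 ± 0.31 (0.922), with a median of -0.07.

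Among the regulators, *Ppargc1b*, a coactivator that drives mitochondrial gene programs, was at 92.5 and 84.3 CPM for WT, 99.9 and 113 for rd10 at P15, 44.4 and 56.4 at P18 and 52.5 and 52.2 at P21. The P18 and P21 libraries were clear below those of P15. It fell in rd10 P18 against rd10 P15 by 1.08 on the log2 scale (SE 0.15, adjusted p = 0.0342 by edgeR; -0.91 without replicate 1) and in rd10 P21 against rd10 P15 by 1.02 (SE 0.15, 0.0411), and was at -0.76 ± 0.15 at P21 against WT P15 (0.0945). *Esrrb*, an estrogen-related receptor, was at -0.81 ± 0.20 (0.137) at P21 against WT P15. The other regulators did not pass the test in any comparison except by adjusted p alone for *Ppargc1b* in rd10 P18 against WT P15 (-0.81 ± 0.15, 0.0421; -0.65 without replicate 1).

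Cytosolic ribosomal protein genes, which are not mitochondrial, had medians close to those of the members at P15 and P21 and a higher median at P18. Against WT P15, their median stood at 0.17 (P15), 0.36 (P18) and -0.27 (P21), beside 0.11, 0.19 and -0.29 for the members, and -0.40 in rd10 P21 against rd10 P15 beside -0.42. At P18 these medians were 0.038 for the ribosomal genes and -0.13 for the members without replicate 1. Of the 78, both P21 libraries lay below both WT libraries for 58 (24.2% of all genes). In each comparison with WT P15 1 was called, where 0.23%, 1.48% and 0.386% of all genes were at P15, P18 and P21. This was *Rpl29* (5.45 ± 0.26 at P21, adjusted p = 0.000139 by edgeR), far from the list's quartiles of -0.38 and -0.13 at P21. *Rpl21* was at -0.88 ± 0.39 (0.443) at P21. Over the 19 members with under 1 kb of exon the median at P21 against WT P15 was -0.34, and over the 30 with more than 2 kb it was -0.29, while all genes tested were at -0.20 and 0.03 in the same length classes. The part of length in the members' values was not tested.

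**Figure D5:**
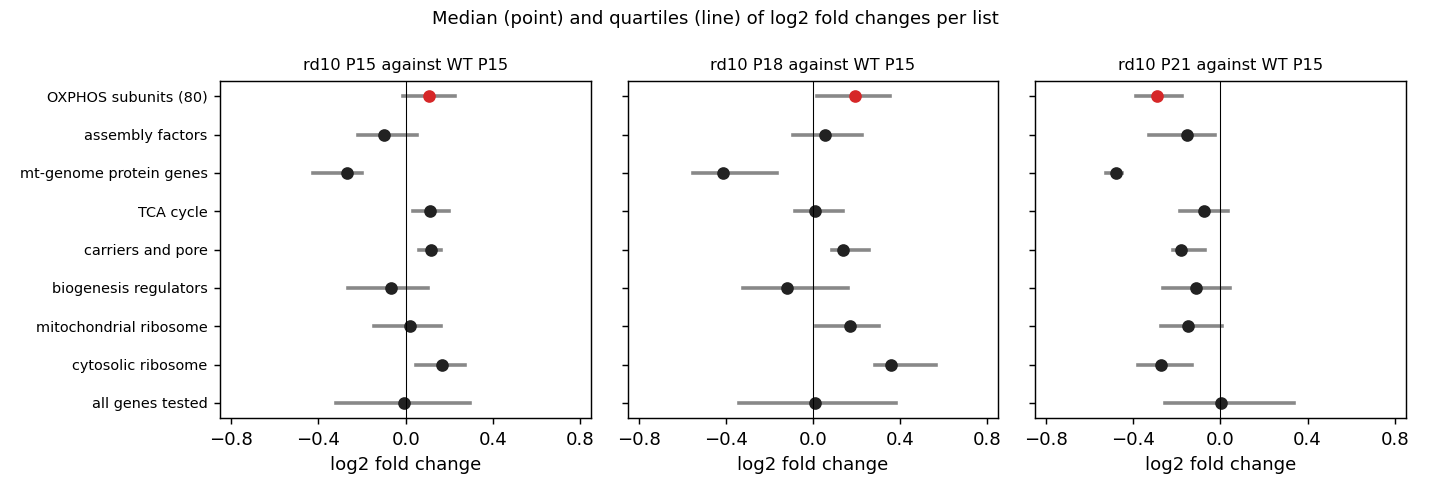
Median (point) and quartiles (line) of the log2 fold changes (x axis) of the members, of 7 other lists and of all genes tested against WT P15 at P15, P18 and P21. The members (red) are at 0.11, 0.19 and -0.29 and the cytosolic ribosomal proteins at 0.17, 0.36 and -0.27. The mitochondrial-genome genes are below 0 at all 3 ages.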

How the data were processed

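Poly(A) RNA of 8 whole retinas (4 groups, 2 libraries each) was sequenced by the authors, who aligned reads with HISAT2 according to the submitters' processing notes. The deposited table holds raw read counts per Ensembl gene identifier, whole numbers without normalization. Which tool counted the reads, and over which build and gene models, is not given in the sources used here. All 8 columns were used. Of the 80 members, 1 is left out of the values given gene by gene and is not reported here by name. Symbols, coordinates and exon lengths came from GENCODE M21 (GRCm38), which names 52081 of the 57010 identifiers, and promoters from RefSeq.

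Total counts were 28076947 to 33724562 per library. A robust quasi-likelihood model of edgeR 4.0.16 (with limma 3.58.1 under R 4.3.3) was fitted to all 8 libraries after TMM scaling, which leaves 4 residual degrees of freedom. filterByExpr, given the 4 groups, a minimum count of 10 and a minimum total of 15, left 20457 genes, over which Benjamini-Hochberg adjustment was made. CPM used TMM-scaled library sizes and RPKM divided CPM by the union of exon lengths in kb. A standard error is the log2 fold change divided by the square root of F. The script was tested on simulated counts. Figures were drawn with matplotlib in Python.

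The members and lists were chosen with earlier results of these data known. Named members were the 4 highest and 4 lowest log2 fold changes against WT P15 at each age (mean count of at least 50), called members, the 2 of highest RPKM per complex and the isoform pairs, with 2 genes per pathway list. Others are said to be chosen after their values were seen, or are given as examples of a complex. Alternatives were DESeq2 1.42.0, RLE factors, library size alone, no low-count filter, fits of just the 4 libraries compared, a replicate block, a term for sex, adjusted p alone and leaving out each library. The term for sex without replicate 1 of rd10 P18 was added after seeing the data.

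An exon of 27 members overlaps another gene, and the protocol does not mark strand, so reads of a gene and its antisense partner cannot be told apart. How the counting shared reads between members and their processed pseudogenes is not given in the sources used here, so levels of genes with such copies are uncertain. Same-numbered libraries deviated from their group means with correlations of -0.025 to 0.059 across genes, and the main fit did not treat them as pairs. With 2 libraries per group this check cannot exclude a shared litter or preparation.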

Additional observations from a re-analysis of the deposited data

How the results depend on the processing

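Scaling by library size alone, which set the median of all genes at 0.03, 0.13 and 0.11 for rd10 P15, P18 and P21 against WT P15, moved the members' median to 0.15, 0.32 and -0.18 in these comparisons and to 0.20 and -0.35 for rd10 P18 and P21 against rd10 P15. A term for sex, which carries the rd10 P18 gap between replicates (0.57 for the members, against 0.06 at P21), gave -0.22, 0.0021, -0.45, 0.25 and -0.25 in that order. It called 0 members at P18 (0.934% of all genes) and 1 in rd10 P21 against rd10 P15 (*Cox7a2l*, with 0.763% of all genes). It put *Ndufa1* (0.00, at -0.0003) and *Uqcrq* (-0.16) below 0 at P15 and *Ndufs4* (-0.078) and *Sdhd* (-0.10) below 0 at P21. With the same term and replicate 1 of rd10 P18 left out, chosen after seeing the data, the medians were 0.037, -0.13, -0.33, -0.14 and -0.37. *Cox7a2l* was then at 2.14 and *Uqcrq* at -0.15 at P15, and *Sdhd* was at -0.0086 and *Cox8b* at 0.086 at P21. At P15 no filter called 1 member (0.49% of all genes), a fit of only the 4 libraries compared 2 (1.1%), and DESeq2 2 (1.46%), beside 0.23% of all genes in the main fit. At P18 the 4-library fit called 0 (0.748% of all genes), and at P21 DESeq2 called 1 (1.94%). Leaving out each library in turn, the median ranged from 0.08 to 0.12 at P15 with 0 to 1 called, from -0.13 to 0.44 at P18 with 0 to 2, from -0.33 to -0.25 at P21 with 0 to 1, from -0.20 to 0.33 for rd10 P18 against rd10 P15 with 0, and from -0.43 to -0.36 for rd10 P21 against rd10 P15 with 0 to 1. Over these fits *Ndufa5* ranged from -0.75 to 0.20 at P18, *Cox7a2l* from -0.39 to 0.62, *Sdhd* from -0.0088 to 0.086 and *Cox8b* from -0.91 to 2.31 at P21. *Cox8b* at P21, at 0 to 50 counts, was at 0.012 with library size alone, 0.78 with the replicate block and 0.10 with the term for sex, and *Atp5a1* was at 0.017 with library size alone. The replicate block changed no call, with medians of 0.10, 0.19, -0.29, 0.10 and -0.42 in the 5 comparisons. It called 1 member, *Ndufa4l2* at P18 (adjusted p = 0.0429 by edgeR), with 1.13% of all genes. The causes of these shifts were not tested. With 2 libraries per group no difference rests on more than 4 libraries.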
